A study of Caenorhabditis elegans with 3 samples.

Results

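The lys genes of Caenorhabditis elegans encode lysozymes, and 9 of them (lys-1 to lys-8 and lys-10) were described across 3 messenger RNA libraries. They were taken by name from both deposited gene tables, which list 46135 genes, and all 9 were found in both. Their FPKM values (fragments scaled to transcript length and library depth, a level per length) are given as a description, since the family was selected on the FPKM of these same libraries. Wild-type N2 worms, the standard laboratory strain, were fed from the first larval stage with bacteria carrying an RNAi clone, whose target was gfp, ham-3 or swsn-2.2, and were collected as L4 larvae after 36 hours. The gfp clone is the control, because worms have no gfp gene. No allele or drug is given for any group, and all 3 groups share the strain, the stage and the feeding. The culture temperature is 25 °C in one label and 35 °C in another, so it is uncertain. Poly(A)-enriched RNA came from whole animals, so fewer cells of a type and less RNA per cell cannot be told apart. Each group is 1 library, so there is no replicate spread and no test across animals, and p-values are those of the authors' deposited tables.

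Lysozymes cut the peptidoglycan wall of bacteria. C. elegans eats bacteria, and its lysozymes serve digestion and defence, with the intestine as a main site of production. The LYS proteins resemble lysozymes of amoebae, while a separate ILYS family resembles those of other invertebrates. Several lys genes are known as targets of infection and of the DAF-16, PMK-1 or DBL-1 pathways, which control stress resistance, immunity and body size. HAM-3 and SWSN-2.2 are related subunits of SWI/SNF, a complex that moves nucleosomes.

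The FPKM of ham-3 itself was 19.3 with gfp(RNAi), 23.1 in the ham-3(RNAi)-labelled library and 31.5 with swsn-2.2(RNAi), so ham-3 was not lower in its own library and that label is kept as a label only. The swsn-2.2 gene had FPKM 19.3, 37.8 and a listed 0 in the same order. The spacing of low FPKM values put depth at about 19700000 fragments for gfp(RNAi) and 31000000 for each of the others. Between 61.7% and 62.7% of the low values used lay within 0.1 of a whole fragment, so fragment numbers are approximate. A listed 0 can be a failed estimate, since 267, 160 and 178 genes were listed at 0 in 1 library (in the same order) and at 10 FPKM or more in another. The listed 0 of swsn-2.2 in its own library can be such a case, so a lower level there is not settled. The median log2 ratio of FPKM + 1 over all genes kept against gfp(RNAi) was 0.03 in the ham-3(RNAi)-labelled library and 0.08 in swsn-2.2(RNAi).

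Apart from lys-8, listed at 0 in every library, levels in gfp(RNAi) ran from 773 FPKM for lys-1 to 0.445 for lys-10. The same genes were abundant in every library. The gene lys-1 was highest, with FPKM 773 in gfp(RNAi), 791 in the ham-3(RNAi)-labelled library and 942 in swsn-2.2(RNAi). It ranked at the 98.7, 98.8 and 99.1 percentile of all genes above 0 in those libraries. The gene lys-2 was next, at 336, 336 and 531 FPKM. Together lys-1 and lys-2 made up most of the family's FPKM in each library, with 57.8% and 25.1% of the sum in gfp(RNAi). A middle tier held lys-7, lys-4 and lys-3, at 88.9, 76.5 and 60.1 FPKM in gfp(RNAi). A low tier held lys-5 (1.14), lys-6 (0.652) and lys-10 (0.445), which rest on about 12, 7 and 5 fragments in gfp(RNAi). Exact Poisson 95% intervals of these low levels overlap, from 0.587 to 1.99 FPKM for lys-5, from 0.262 to 1.34 for lys-6 and from 0.156 to 1.12 for lys-10. The order of those 3 genes is therefore not resolved at this depth. PCR copies are not independent molecules, so all intervals cover counting error only.

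**Figure D1:**
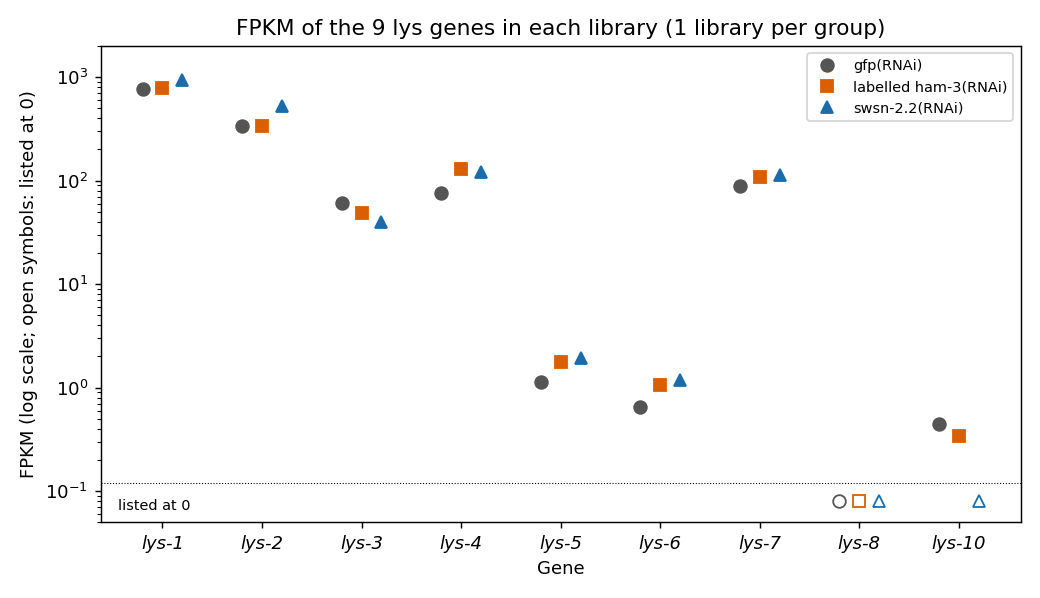
FPKM of each lys gene (log axis) in the 3 libraries, 1 point per library, with open symbols for a listed 0. Apart from lys-8, listed at 0 throughout, the genes fall into high, middle and low tiers in every library. They run from lys-1 at 773 to 942 FPKM down to lys-10 at 0.445 or less.

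The order within the middle tier differed between libraries. In gfp(RNAi) it ran lys-7, lys-4, lys-3, and in both other libraries lys-4 stood above lys-7. The level of lys-4 was 0.861 times that of lys-7 in gfp(RNAi), 1.2 times in the ham-3(RNAi)-labelled library and 1.06 times in swsn-2.2(RNAi). The level of lys-4 over lys-3 went from 1.27 in gfp(RNAi) to 2.71 and 3.01 in the other libraries. Summed over all 9 genes, FPKM was 1337 in gfp(RNAi), 1417 in the ham-3(RNAi)-labelled library and 1752 in swsn-2.2(RNAi). The log2 ratio of these sums to gfp(RNAi) was 0.08 and 0.39. In swsn-2.2(RNAi), lys-1 was 169 FPKM above gfp(RNAi) and lys-2 was 195 above it, most of the difference in the sum. The share of lys-2 in the sum was 25.1%, 23.7% and 30.3%, and that of lys-3 was 4.50%, 3.40% and 2.29%.

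**Figure D2:**
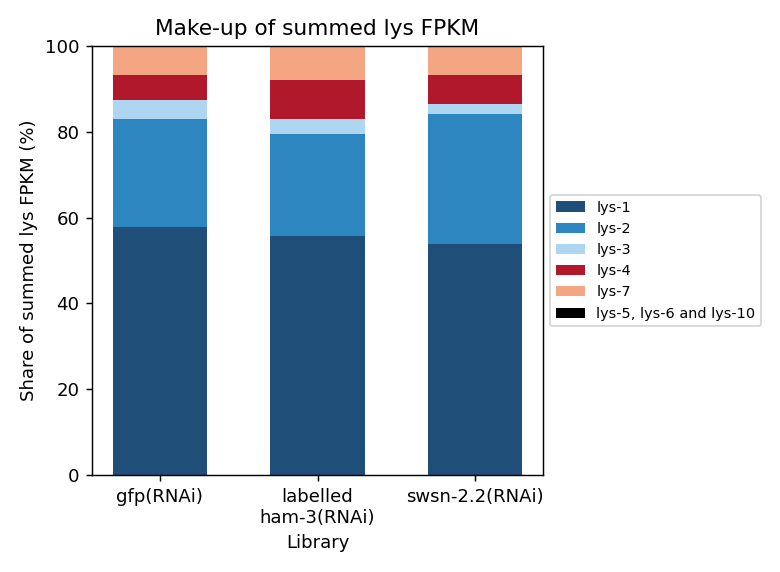
Share of the summed lys FPKM (%) held by each gene in the 3 libraries, where lys-5, lys-6 and lys-10 together are too thin to see. The share of lys-4 is 5.72% in gfp(RNAi), 9.19% in the ham-3(RNAi)-labelled library and 6.90% in swsn-2.2(RNAi).

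On chromosome V (assembly WBcel235), lys-1, lys-2 and lys-3 lie within 5641 bp, and their ratios to gfp(RNAi) pointed in different directions. The gene lys-1 (Y22F5A.4, 10277904 to 10279056, plus strand) has 2 exons and encodes 298 residues. The gene lys-2 (Y22F5A.5, 10280307 to 10281474, minus strand) has 2 exons and encodes 279 residues. The gene lys-3 (Y22F5A.6, 10282100 to 10283544, minus strand) has 3 exons and encodes a protein of similar length to lys-1. Only 1250 bp separate lys-1 from lys-2, and 625 bp separate lys-2 from lys-3.

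The level of lys-2 did not differ between gfp(RNAi) and the ham-3(RNAi)-labelled library beyond counting error, with a log2 FPKM ratio of -0.00154 (95% counting interval -0.05 to 0.05). In swsn-2.2(RNAi) it was 1.58-fold higher than in gfp(RNAi), a log2 FPKM ratio of 0.66 (0.61 to 0.71). So its 336 and 336 FPKM stood together below the 531 of swsn-2.2(RNAi). The authors' deposited table gives lys-2 a p-value of 0.991 for the first comparison and 9.41e-07 for the other, with a q-value of 7.90e-05 in their list of higher genes. Such a p-value compares single libraries, not conditions.

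The level of lys-3, the neighbour of lys-2, lay in the opposite direction. Its FPKM was 60.1 in gfp(RNAi), 48.1 in the ham-3(RNAi)-labelled library and 40.2 in swsn-2.2(RNAi), so gfp(RNAi) was highest. The log2 FPKM ratio to gfp(RNAi) was -0.32 (counting interval -0.43 to -0.21) and -0.58 (-0.70 to -0.46). The level of lys-2 over lys-3 was 5.59 in gfp(RNAi), 6.98 in the ham-3(RNAi)-labelled library and 13.2 in swsn-2.2(RNAi). The authors' deposited table gives lys-3 a p-value of 0.0336 and 5.25e-05 in the same order, and their list of lower genes for swsn-2.2(RNAi) holds it with a q-value of 0.00290.

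The level of lys-1 was closer to the control than that of either neighbour in swsn-2.2(RNAi), at 1.22-fold, and at 1.02-fold in the ham-3(RNAi)-labelled library. The authors' deposited tables give it p-values of 0.737 and 0.00433 (q-value 0.0861 in the list of higher genes for swsn-2.2(RNAi)). The files split lys-1 into 2 transcripts whose starts differ by 77 bp. How well reads divide between them was not tested, and the gene value above needs no such division. The transcript with the downstream start held 64.9%, 64.3% and 60.5% of lys-1 FPKM, in the order gfp(RNAi), ham-3(RNAi)-labelled library and swsn-2.2(RNAi). The transcript with the upstream start was at 272, 282 and 372 FPKM, a log2 ratio of 0.05 and 0.45 to gfp(RNAi), against 0.02 and 0.19 for the other transcript. The outer protein-coding neighbours of the group were Y22F5A.11, listed at 0 in every library, and B0024.3, at 2.78, 2.41 and 2.59 FPKM.

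On chromosome IV, lys-4, lys-5 and lys-6 lie within 6519 bp on the minus strand, and all 3 had ratios above 0 in both RNAi libraries. Each has 2 exons and a similar protein length. The gene lys-4 (F58B3.1, 11621429 to 11623174) encodes 214 residues, lys-5 (F58B3.2, 11624252 to 11625582) 215 and lys-6 (F58B3.3, 11626910 to 11627947) 214. A piRNA gene overlaps lys-4 on the same strand, and no other annotated gene overlaps these 3.

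The gene lys-4 had the highest ratio of the family in the ham-3(RNAi)-labelled library. Its FPKM was 76.5 in gfp(RNAi), 130.3 in the ham-3(RNAi)-labelled library and 121 in swsn-2.2(RNAi), so gfp(RNAi) stood below both others. It was 1.70-fold and 1.58-fold higher, with log2 FPKM ratios of 0.77 (counting interval 0.66 to 0.88) and 0.66 (0.55 to 0.77). On the FPKM + 1 scale, genes were ranked if above 0 in both libraries of a pair and averaging at least 1 FPKM over them. In the ham-3(RNAi)-labelled library, 14073 of 14189 such genes had a lower ratio than lys-4. In swsn-2.2(RNAi), 14032 of 14270 had a lower ratio than lys-4, and 14037 had one lower than lys-2. The authors' deposited tables give lys-4 p-values of 1.51e-07 and 2.21e-06, with q-values of 1.13e-05 and 0.000176 in both lists of higher genes. Their list of 68 genes higher in both comparisons holds lys-4 and no other lys gene, and lys-4 is among the 10 that it marks as DAF-16 related.

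The neighbours lys-5 and lys-6 had ratios of similar size at a far lower level. The FPKM of lys-5 was 1.14, 1.76 and 1.94, and that of lys-6 was 0.652, 1.07 and 1.18, in the order gfp(RNAi), ham-3(RNAi)-labelled library and swsn-2.2(RNAi). For both genes gfp(RNAi) was lowest, but every counting interval includes 0. The log2 FPKM ratio of lys-5 was 0.62 (-0.39 to 1.73) and 0.76 (-0.23 to 1.86). That of lys-6 was 0.71 (-0.62 to 2.21) and 0.86 (-0.44 to 2.35). The authors' deposited tables give p-values of 0.209 and 0.119 for lys-5 and of 0.268 and 0.174 for lys-6. Whether lys-5 and lys-6 differ from the control is therefore not detectable at this depth. The level of lys-4 was 66.9, 74.1 and 62.4 times that of lys-5. The protein-coding genes flanking the group were dsl-5, at 0.461, 0.587 and 0.168 FPKM, and F58B3.4, at 49.1, 47.0 and 62.9 FPKM.

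**Figure D3:**
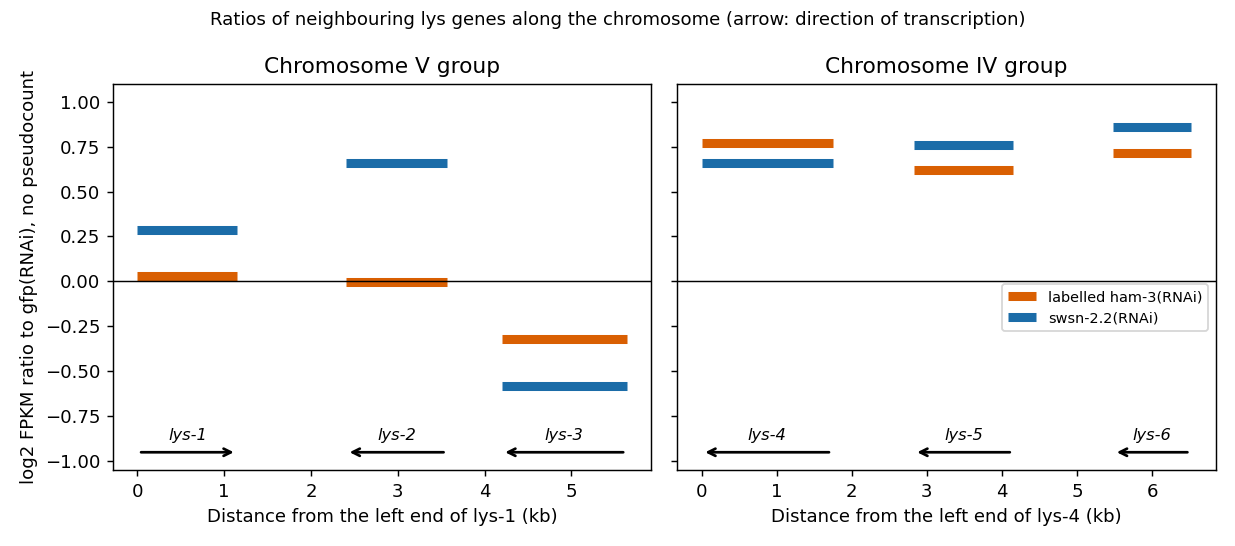
Log2 FPKM ratio to gfp(RNAi) (no pseudocount) of the lys genes in each chromosomal group, drawn over the length of each gene against distance from the left end of the group (kb), with arrows for the direction of transcription. On chromosome V the ratios lie on both sides of 0, from -0.58 for lys-3 to 0.66 for lys-2 in swsn-2.2(RNAi), while on chromosome IV all 6 values lie between 0.62 and 0.86.

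The 3 remaining genes lie alone. The gene lys-7 (C02A12.4; chromosome V, 3481432 to 3482600, minus strand), known as an intestinal defence gene and a DAF-16 target, has 3 exons and encodes 283 residues. Its FPKM was 88.9 in gfp(RNAi), 109 in the ham-3(RNAi)-labelled library and 114 in swsn-2.2(RNAi), so both RNAi libraries stood close together above gfp(RNAi). The ratio was 1.22-fold and 1.28-fold, and the authors' deposited tables give p-values of 0.0254 and 0.00361, with a q-value of 0.0768 in the list of higher genes for swsn-2.2(RNAi). Its adjacent genes srbc-30 and srbc-33, of a chemoreceptor family, were listed at 0 or at 0.210 FPKM or less in every library.

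The files split lys-7 into 2 transcripts whose starts differ by 2 bp, so the division of reads between them is uncertain. The one with the upstream start was at 74.8, 102 and 103.6 FPKM, and the other at 14.1, 6.97 and 10.6, in the order gfp(RNAi), ham-3(RNAi)-labelled library and swsn-2.2(RNAi). The log2 ratios to gfp(RNAi) were 0.45 and 0.47 for the upstream start and -1.02 and -0.41 for the other. The sum over both is the gene value above and needs no such division.

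The gene lys-8 (C17G10.5; chromosome II, 5586178 to 5587651, plus strand) encodes 286 residues and is known as an intestinal lysozyme controlled by DBL-1 signalling. Both its transcripts were listed at 0 in all 3 libraries, and the authors' deposited tables hold no test for it. The moulting regulator gene nhr-23 and the saposin-like gene spp-1 were also listed at 0 in all 3. So was sod-2, a superoxide dismutase gene of mitochondria, in gfp(RNAi) and swsn-2.2(RNAi), with 199 FPKM in the remaining library. No level of lys-8 can be read from these files. On the opposite strand, lys-8 overlaps the end of the gene C17G10.13 by 38 bp.

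The gene lys-10 (F17E9.11; chromosome IV, 8332826 to 8333518, plus strand) has 1 exon, encodes 230 residues and lies between the histone genes his-30 and his-31. It was at 0.445 FPKM in gfp(RNAi), 0.340 in the ham-3(RNAi)-labelled library and a listed 0 in swsn-2.2(RNAi). These levels rest on about 5 and 6 fragments in the first 2 libraries. The log2 FPKM ratio for the ham-3(RNAi)-labelled library was -0.39 (counting interval -2.36 to 1.66), which includes 0. The listed 0 in swsn-2.2(RNAi) can be a failed estimate, so neither a limit nor a fold is given. The authors' deposited table gives a p-value of 0.0127 for this comparison, beside a placeholder in place of a fold.

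**Figure D4:**
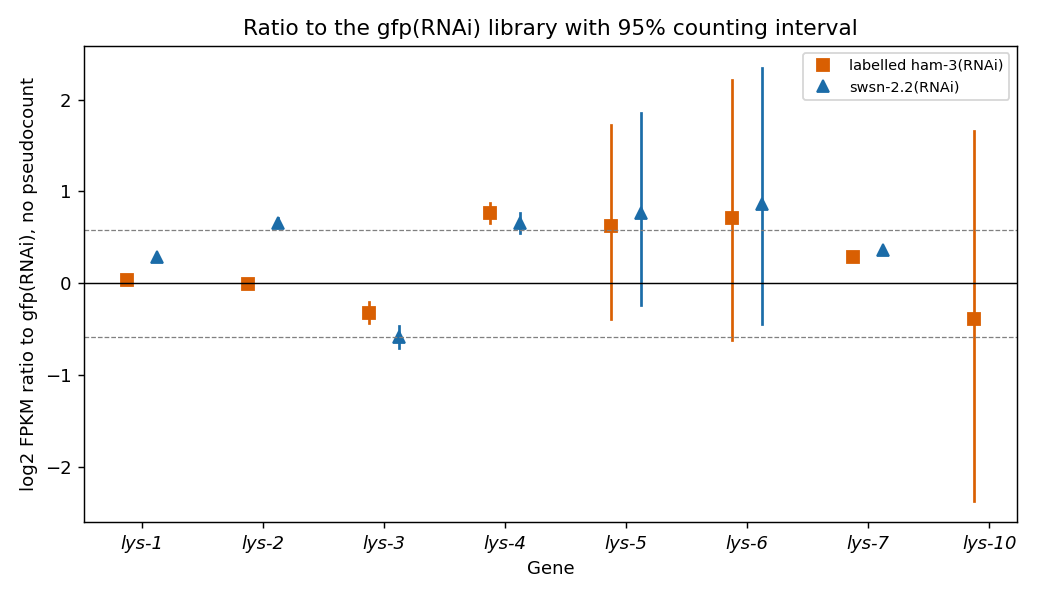
Log2 FPKM ratio to gfp(RNAi) (no pseudocount) of each lys gene above 0, with 95% counting intervals for genes with 1 listed transcript and dashed lines at 1.5-fold. The intervals of lys-4 and of lys-3 exclude 0 in both libraries, that of lys-2 only in swsn-2.2(RNAi), and those of lys-5, lys-6 and lys-10 include 0.

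Set directly against the ham-3(RNAi)-labelled library, the swsn-2.2(RNAi) library differed most in lys-2. The log2 FPKM ratio of lys-2 was 0.66 (counting interval 0.62 to 0.70), a 1.58-fold higher level. The level of lys-1 was 1.19-fold higher in swsn-2.2(RNAi). The ratio of lys-3 was -0.26 (-0.37 to -0.15) and that of lys-4 was -0.11 (-0.19 to -0.03), so both were lower in swsn-2.2(RNAi). The ratios of lys-5 (0.14, interval -0.63 to 0.92) and lys-6 (0.15, interval -0.84 to 1.15) had intervals around 0. The level of lys-7 was 1.05-fold that of the ham-3(RNAi)-labelled library, and its log2 ratio turned to -0.01 when libraries were scaled to their upper quartile. This comparison does not use gfp(RNAi), whereas both comparisons with gfp(RNAi) share that library, so a low or high value there moves both ratios of a gene together.

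Genes were kept for counts when their mean FPKM over a pair was at least 1. Of the 9 lys genes, 6 passed against gfp(RNAi) in each comparison (lys-1 to lys-5 and lys-7), while lys-6, lys-8 and lys-10 did not. On the FPKM + 1 scale, 1 of 6 (lys-4) was at least 1.5-fold higher in the ham-3(RNAi)-labelled library, where 3.69% of 14683 genes were. None of the 6 was 1.5-fold lower, where 4.01% of genes were. In swsn-2.2(RNAi), 2 of 6 (lys-2 and lys-4) were at least 1.5-fold higher, where 4.14% of 14713 genes were, and 0 were lower, where 2.54% were. The ratio of lys-3, -0.57 on this scale, fell just short of the 1.5-fold limit of -0.58. The gap between lys-2 or lys-4 and that limit was also small: with ratios centred on the median gene or scaled to the upper quartile, 0 of 6 were 1.5-fold higher and 1 (lys-3) was lower. At least 2-fold, 0 lys genes passed in either direction in any comparison. The matching shares of all genes were 2.40% higher and 1.76% lower in the ham-3(RNAi)-labelled library, and 2.26% and 1.46% in swsn-2.2(RNAi). Between both RNAi libraries, 1 of 7 genes (lys-2) was 1.5-fold higher in swsn-2.2(RNAi), where 4.66% of 14738 genes were, and 0 were lower, where 2.93% were. At 2-fold the shares of all genes were 1.93% and 1.79%. Without genes listed at 0, the shares past 1.5-fold were 1.64% higher and 2.85% lower in the ham-3(RNAi)-labelled library, and 2.33% and 1.45% in swsn-2.2(RNAi). Between both RNAi libraries they were 3.40% and 1.45%.

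By sign, 4 of 6 lys genes lay above 0 in the ham-3(RNAi)-labelled library, where 56.1% of genes did, and 5 of 6 in swsn-2.2(RNAi), where 65.5% did. Between both RNAi libraries 5 of 7 did, where 59.7% of genes did. The median log2 ratio of the 6 was 0.16 and 0.41, beside 0.03 and 0.08 over all genes kept. With a filter at 5 FPKM, which leaves out lys-5, the first of these medians was 0.0329, close to that of all genes. The authors' list of higher genes held 1 of the 8 lys genes with a test (all but lys-8) for the ham-3(RNAi)-labelled library, where it held 1.36% of 19002 genes with a test, and their list of lower genes held 0 (2.89% of genes). For swsn-2.2(RNAi), their lists held 4 of the same 8 as higher (lys-1, lys-2, lys-4 and lys-7; 3.06% of 18962 genes) and 1 as lower (lys-3; 1.84%). Those lists hold genes with a p-value under 0.01 at any fold, such as lys-1 at 1.22-fold.

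**Figure D5:**
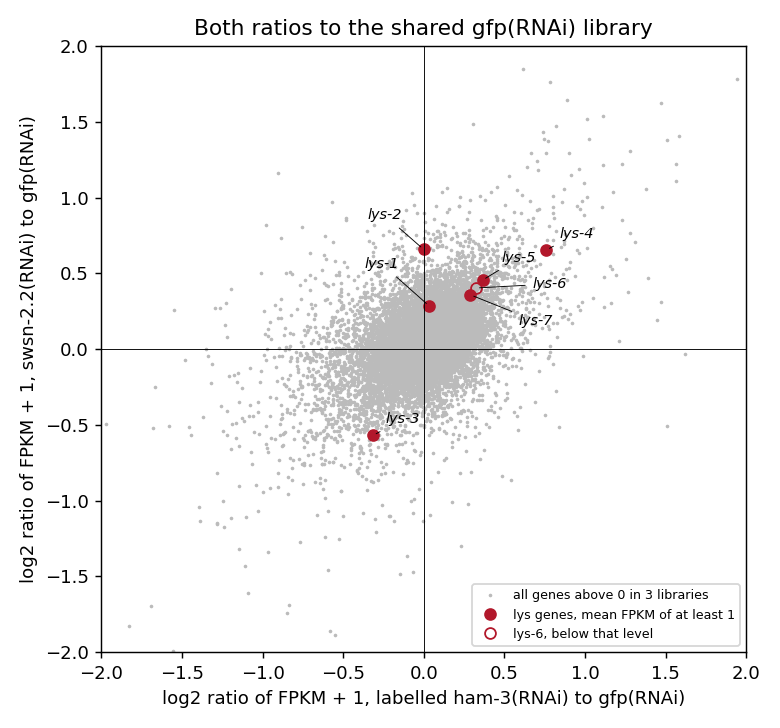
Log2 ratio of FPKM + 1 to gfp(RNAi) in the ham-3(RNAi)-labelled library (x axis) and in swsn-2.2(RNAi) (y axis), with 13998 genes in grey, 7 more outside the axes and the lys genes in red. The gene lys-4 lies high on both axes, lys-2 high on the y axis only, lys-3 low on both, and gfp(RNAi) enters both axes.

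The genes closest to lys-4 in both ratios were sought among the 10940 genes that averaged 5 FPKM or more and had no listed 0. The 5 nearest, by distance over the 2 log2 ratios, were R07C12.1, the C-type lectin genes clec-5 and clec-10, R02F2.6 and the glucuronosyltransferase gene ugt-13. Their distances ran from 0.0480 to 0.126, and 22 genes lay within 0.2 of lys-4. The FPKM of clec-5 was 18.1, 33.4 and 29.4, and that of ugt-13 was 10.1, 19.3 and 17.1, in the order gfp(RNAi), ham-3(RNAi)-labelled library and swsn-2.2(RNAi). Likeness over 3 libraries is a description, and the shared gfp(RNAi) library enters both ratios.

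Among the other lysozyme genes, ilys-5, of the invertebrate type, was the most abundant. Its FPKM was 259 in gfp(RNAi), 298 in the ham-3(RNAi)-labelled library and 399 in swsn-2.2(RNAi), 1.15-fold and 1.54-fold that of gfp(RNAi). The gene ilys-4 was at 23.6, 20.6 and 21 FPKM. The genes ilys-2 and ilys-3 stayed at 1.41 FPKM or less, while lys-9, ilys-1 and ilys-6 were listed at 0 in at least 2 libraries. Summed over these 7 genes, FPKM was 284, 320 and 420, a log2 ratio of 0.17 and 0.57 to gfp(RNAi). Most of each sum was ilys-5 alone, so the ratio of sums mainly reflects that gene, while ilys-4 was below gfp(RNAi) in both other libraries.

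The saposin-like spp genes encode small membrane-acting proteins. Of 18 kept in each comparison, 6 lay above 0 in the ham-3(RNAi)-labelled library, where 56.1% of all genes did. In swsn-2.2(RNAi), 9 of the 18 lay above 0, where 65.5% of all genes did. The medians of the 18 were -0.10 and -0.02. At 1.5-fold, 2 were lower in the ham-3(RNAi)-labelled library (spp-14, at 1730 FPKM in gfp(RNAi) and 1118 there, and spp-23, at 63.3 and 37.9), where 4.01% of all genes were. In swsn-2.2(RNAi), 0 spp genes passed, where 4.14% of all genes were higher and 2.54% lower. Of 22 antimicrobial peptide genes of the abf, cnc and nlp classes, 11 and 13 lay above 0 (medians -0.01 and 0.08). Of all genes kept, 56.1% and 65.5% did. In the ham-3(RNAi)-labelled library, 1 of the 22 was 1.5-fold higher (nlp-32, 15.9 and 28 FPKM) and 1 lower (cnc-8, 390 and 258), where 3.69% and 4.01% of all genes were. In swsn-2.2(RNAi), 0 were higher and 1 lower (cnc-7, 49.3 and 29.7 FPKM), where 4.14% and 2.54% of all genes were.

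Of 25 intestinal immune response genes kept, 5 lay above 0 and 20 below in the ham-3(RNAi)-labelled library (median -0.36), where 56.1% of all genes lay above 0. At least 1.5-fold, 2 of the 25 were higher (3.69% of all genes) and 8 lower (4.01%). Among these, clec-85, a C-type lectin gene, was at 114 FPKM in gfp(RNAi) and 68.6 there, and clec-60 was at 6.07 and 12.1. In swsn-2.2(RNAi), 13 lay above 0 and 12 below (median 0.11), where 65.5% of all genes lay above 0. At least 1.5-fold, 2 were higher (4.14% of all genes) and 3 lower (2.54%). The list holds no lysozyme, and several of its members are named for other functions. Examples are catp-3, a cation pump gene at 134, 52.8 and 114 FPKM, and hsp-16.41, a small heat shock gene at 324, 263 and 139. In the ham-3(RNAi)-labelled library, where most of that list lay below 0, 4 of 6 lys genes lay above 0. Of these, lys-4 was furthest (0.76) and lys-1 was near 0 (0.03), while lys-2 (-0.0015) and lys-3 (-0.32) lay below 0. Of 30 immune signalling and transcription factor genes, tir-1, the adaptor at the head of the PMK-1 cascade, was at 50.8 FPKM in gfp(RNAi), 38.6 in the ham-3(RNAi)-labelled library and 43.6 in swsn-2.2(RNAi). The transcription factor gene cebp-2 was at 21.3, 26.9 and 31.2 FPKM. The authors' lists hold tir-1 as lower in the ham-3(RNAi)-labelled library and cebp-2 as higher in swsn-2.2(RNAi). They hold no other gene of those 30. Of all genes with a test, 2.89% are on the first of these lists and 3.06% on the other. The genes hlh-30 and nhr-49 were listed at 0 in both RNAi libraries, and sma-4 in gfp(RNAi) and the ham-3(RNAi)-labelled library.

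Markers of the tissues in the whole animal were read beside the lys genes. Of all genes kept, 56.1% lay above 0 in the ham-3(RNAi)-labelled library and 65.5% in swsn-2.2(RNAi), with medians of 0.03 and 0.08. Of 20 intestine markers, 8 lay above 0 in the ham-3(RNAi)-labelled library and 14 in swsn-2.2(RNAi), with medians of -0.07 and 0.11. The furthest from the control above 0 FPKM everywhere was gem-4, at 23.6, 12.6 and 19.8 FPKM. The summed FPKM of the 20 was 3815 in gfp(RNAi), 3702 in the ham-3(RNAi)-labelled library and 4059 in swsn-2.2(RNAi). The log2 ratio of the last sum to gfp(RNAi) was 0.09, against 0.39 for the lys sum. Most of each marker sum was asp-1 alone, at 1991, 1956 and 2131 FPKM, so the ratio of sums mainly reflects that gene. The gut transcription factor gene elt-2 was at 12.9, 14.3 and 16.5 FPKM and its relative elt-7 at 31.8, 27.6 and 23.7. The esterase gene ges-1 was at 29.7 FPKM in gfp(RNAi) and listed at 0 in both others, and it is the sole intestine marker listed at 0. Of 15 pharynx markers kept, 12 and 6 lay above 0 (medians 0.04 and -0.07), and of 14 epidermis markers 9 and 5 did (0.08 and -0.15). Summed epidermis marker FPKM was 3285, 3155 and 2575. Most of each epidermis sum was dpy-5 (1077, 1058 and 839 FPKM) and dpy-13 (1055, 868 and 745), so it mainly reflects those genes. The 5 epidermis markers above 0 in swsn-2.2(RNAi) include lin-26 (68.9, 66.7 and 81.3 FPKM) and elt-3 (23.5, 26.9 and 31.2). Summed pharynx marker FPKM was 574, 595 and 537. Of 14 and 13 muscle markers kept, 10 and 6 lay above 0 (medians 0.11 and -0.13). The first count includes unc-22, at 32.3 FPKM in the ham-3(RNAi)-labelled library and listed at 0 in both others. For 16 neuron markers the counts above 0 were 4 and 9 (medians -0.06 and 0.02). Among them, unc-31 was listed at 0 in the ham-3(RNAi)-labelled library, with 3.36 FPKM in gfp(RNAi) and 3.29 in swsn-2.2(RNAi). Of 18 germline markers, 16 and 17 lay above 0, with medians of 0.13 and 0.11. The part of tissue make-up in the lys values was not tested.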

How the data were processed

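Levels are FPKM values as deposited; the submitters' processing notes name Cufflinks as the authors' tool. The log2 fold, p-value and q-value quoted as the authors' come from their deposited tables, made with Cuffdiff per the same notes. Tool versions, the aligner and the build were not given in the sources used here. Coordinates come from the Ensembl release 115 annotation of WBcel235. Of transcripts with the same ID, 89.0% on the plus strand and 77.3% on the minus strand have the same leftmost base in the deposited tables. Transcript starts of lys-1 and lys-7 are compared within those tables. The number of unmapped columns was 0.

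Ratios were log2(FPKM + 1), for genes averaging 1 FPKM or more over a pair, or plain FPKM ratios where stated. The log2 ratios of single transcripts and of summed FPKM are also plain, with nothing added. Fragments were inferred from FPKM of 0.3 or less in genes with 1 transcript of at least 500 bp. Intervals at 95% are exact conditional binomial (Clopper-Pearson) for ratios and exact Poisson for levels. Steps were tested on simulated data. Python 3.11.15, pandas 2.3.3 and scipy 1.17.1 were used.

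Members, lists and rules were chosen with earlier results of these data known. Named were the 9 genes, the targeted genes, flanking genes, the 5 genes most like the furthest lys gene, and up to 3 genes furthest from gfp(RNAi) per list. Other genes named (sod-2, nhr-23, spp-1, hlh-30, nhr-49, sma-4, ges-1, unc-22 and unc-31, listed at 0, and low lysozyme genes) were chosen after their values were seen. So were the markers asp-1, dpy-5 and lin-26. Of 223 list names, 219 matched.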

Additional observations from a re-analysis of the deposited data

How the results depend on the processing

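Ratios were recomputed with 0.1 or 5 FPKM added, without the filter, with a filter at 5 FPKM, centred on the median gene, with upper-quartile scaling, from the transcript table, and without genes listed at 0. Against gfp(RNAi), lys-1 to lys-5 and lys-7 kept their sign in each of these that gave a value. In swsn-2.2(RNAi), lys-2 ranged from 0.56 to 0.66, lys-4 from 0.56 to 0.66 and lys-3 from -0.66 to -0.53, on either side of the 1.5-fold limit of 0.58. In the ham-3(RNAi)-labelled library, lys-4 ranged from 0.73 to 0.77. Centring or upper-quartile scaling left 0 lys genes 1.5-fold higher and 1 lower in swsn-2.2(RNAi), since both lower its values. Upper-quartile scaling also left 0 higher in swsn-2.2(RNAi) against the ham-3(RNAi)-labelled library. The median of the lys genes was 0.0329 in the ham-3(RNAi)-labelled library with the filter at 5 FPKM, which leaves out lys-5, and 0.51 in swsn-2.2(RNAi) at a pseudocount of 0.1. Without genes listed at 0, 233 genes were 1.5-fold higher and 404 lower in the ham-3(RNAi)-labelled library, against 542 and 589 with them. In swsn-2.2(RNAi) the counts were 333 and 207, against 609 and 374. No paired analysis was possible because each group is 1 library, and no library could be left out. Depth limits lys-5, lys-6 and lys-10.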
